A study of Macaca mulatta with 10 samples.

Results

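The 73 replication-dependent histone genes of the count table, of 26484 genes listed, were described in Tr1 cells of 10 rhesus macaques. Members were all genes whose symbol begins with HIST1H to HIST4H, the human names of the clustered histone genes, so membership followed from the name alone. The family itself was chosen with earlier results of these data known. They comprised 6 linker histone H1 genes, 18 H2A genes, 20 H2B genes, 14 H3 genes and 15 H4 genes. By cluster, 56 carried a HIST1 name, 13 a HIST2 name, 3 a HIST3 name and 1 a HIST4 name.

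Replication-dependent histone genes supply the proteins that package newly copied DNA. H2A, H2B, H3 and H4 form the nucleosome core and H1 binds the linker between cores. Their transcription rises in S phase, and their mRNAs end in a stem-loop bound by SLBP in place of a poly(A) tail. They are therefore largely missed by poly(A) selection and seen in total RNA libraries. In lymphocytes they mark cells that are copying DNA, so MKI67, a marker of cycling cells, and TOP2A, the topoisomerase that untangles sister chromatids, served as a check.

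Tr1 cells are IL-10-producing regulatory CD4+ T cells, sorted here as CD4+CD49b+LAG-3+ from blood mononuclear cells that had been frozen, thawed and rested overnight. Cohort B comprised 5 diabetic islet allograft recipients given transient immunosuppression (an anti-CD40 antibody, rapamycin, soluble TNF receptor and an anti-IL-6 receptor antibody) without apoptotic donor leukocyte (ADL) infusions. Cohort C comprised 5 recipients given the same immunosuppression plus peritransplant ADL infusions, and the comparison asks what ADL infusion changed in these cells. The labels place sampling at rejection for Cohort B and at the study end point for Cohort C, so infusion and graft outcome cannot be told apart. Each monkey gave 1 library, and its reads had been aligned to human hg38.

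Sequencing depth differed widely between the libraries. Totals ranged from 6076 to 5895609 counts, and the 4 libraries over 1000000 counts (13EP12 and 13EP8 of Cohort B, 13EP5 and 15CP1 of Cohort C) held 87.1% of all counts and 94.4% of the 18228 histone counts. Of the other 6 libraries, which together held 1023 histone counts, 14HP33 had 82.6% of its counts in MTRNR2L1, a nuclear gene that resembles mitochondrial ribosomal RNA. The sort genes CD4, ITGA2 (which encodes CD49b) and LAG3, and IL10, the cytokine of Tr1 cells, were all at 0 in 14HP26, 14HP31, 14HP33 and 15CP4. All 4 of these genes were above 3 counts in 13EP5 and 15CP1, 3 of 4 in 13EP12 and 1 of 4 in 13EP8. In bulk libraries, fewer cycling cells and less histone RNA per cell cannot be told apart.

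Of the 73 members, 14 had 0 counts in every library, 1 (HIST3H3) had 1 count and 58 reached the 10 counts set for testing. The undetected members included both genes of the near-identical pairs HIST2H2AA3 and HIST2H2AA4, HIST2H3A and HIST2H3C, and HIST2H4A and HIST2H4B. With HIST2H2BA these made 7 of the 13 HIST2 members. How the counting treated reads with several matches is not given in the sources used here, so a count of 0 for such a copy does not show that it was silent, and counts of other near-identical members are uncertain in the same way. Of the 4 members known chiefly from testis, HIST1H1T, HIST1H2AA and HIST1H2BA were at 0, which leaves the single HIST3H3 count of 15CP1.

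Detection was thin outside the deepest libraries. Above 3 counts, the floor used here for a single library, stood 55 members in 15CP1, 48 in 13EP5, 37 in 13EP8 and 32 in 13EP12. The numbers were 20 in 14HP24, 11 in 15CP6, 6 in 14HP33 and 2 each in 14HP26, 14HP31 and 15CP4. Only 18 members were above 3 counts in 5 or more libraries, and 5 were so in 1 library alone. One library held over 50% of the counts for 34 of the 58 tested members, and the library with most counts was 15CP1 for 38 members and 13EP5 for 13. The map of levels by member and library shows filled columns for the deepest libraries and a few isolated bright cells elsewhere.

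**Figure D1:**
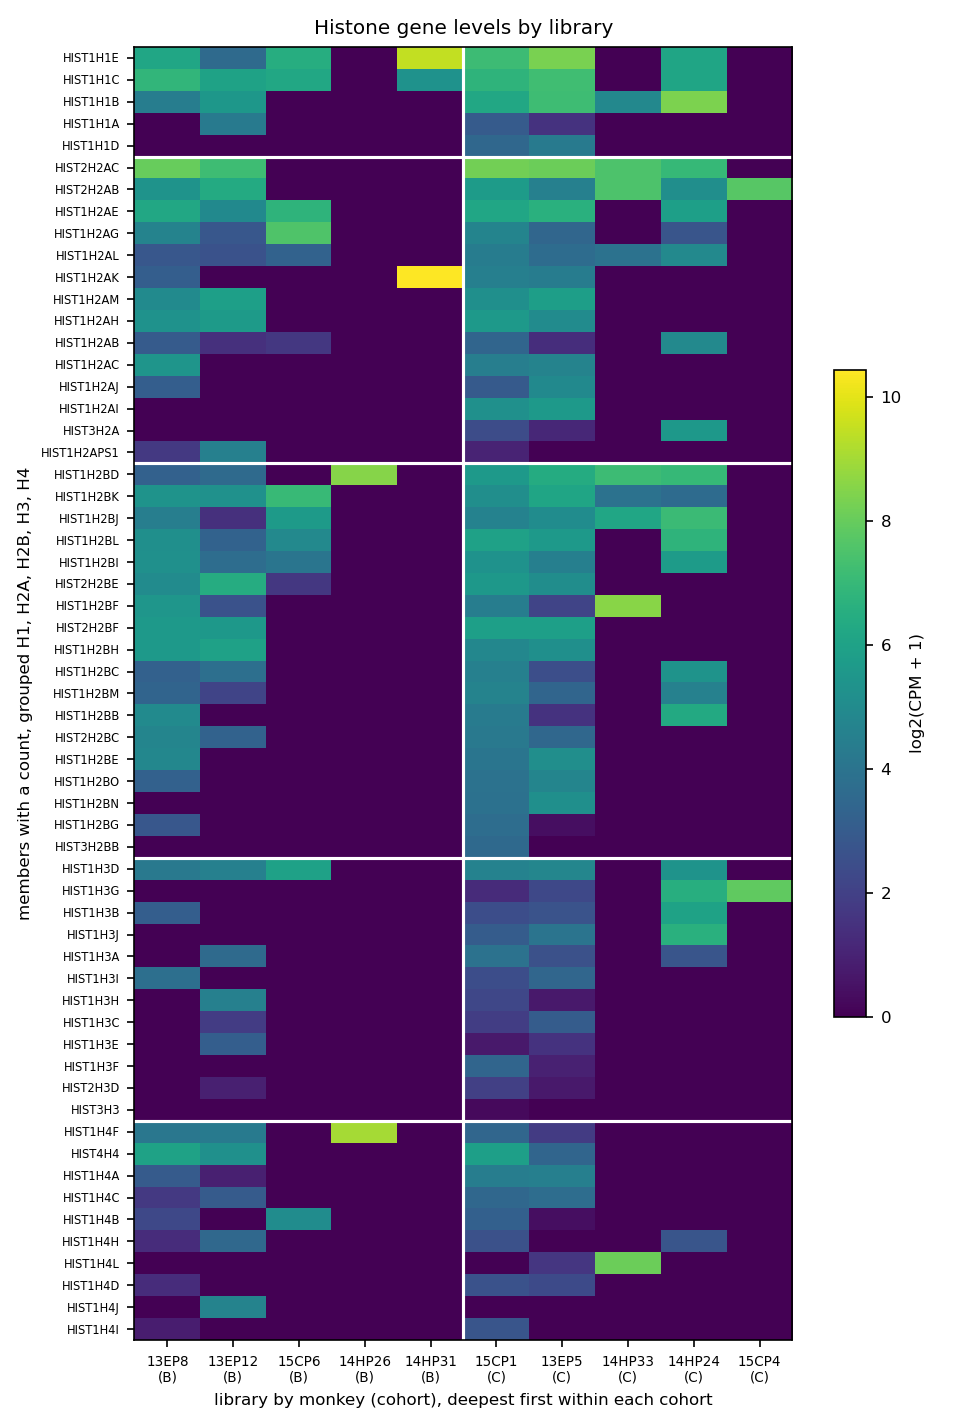
Level of each of the 59 members with a count, as log2(CPM + 1) from library-scaled counts (colour), in the 10 libraries (columns, by monkey and cohort). Rows are grouped by type and ordered by summed level. The libraries 15CP1, 13EP5, 13EP8 and 13EP12 show most members, whereas 14HP26, 14HP31 and 15CP4 show 2 or 3 members each, at high values because few counts make up those libraries.

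Histone genes took a share of the counts that overlapped between the cohorts. In Cohort B the share was 0.0972% in 13EP12 (1158 counts), 0.124% in 13EP8 (1724), 0.133% in 14HP26 (152), 0.889% in 14HP31 (54) and 0.0793% in 15CP6 (361). In Cohort C it was 0.183% in 13EP5 (6129 counts), 0.00940% in 14HP33 (91), 0.214% in 14HP24 (293), 0.139% in 15CP1 (8194) and 0.108% in 15CP4 (72). The highest share, that of 14HP31, came from the shallowest library and had a 95% Wilson interval of 0.682 to 1.16%, which covers counting error only. In CPM, which are meant to put the counts of all libraries on one scale (here with TMM factors), the summed level ran from 448 in 15CP4 to 2130 in 14HP31. The factors themselves ran from 0.0727 in 14HP33 to 4.17 in 14HP31. With them 14HP33, whose share was the lowest, stood at 1292 CPM, so the cohort means below rest in part on this scaling. On the log2(CPM + 1) scale the mean was 10.17 ± 0.57 in Cohort B and 10.30 ± 0.86 in Cohort C (SD, n = 5 each). The difference of 0.13 was smaller than the spread within either cohort, and it was -0.87 when library size alone was used for scaling.

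The 5 types did not differ between the cohorts beyond the spread of the libraries either. The summed level of Cohort C minus that of Cohort B, on the log2(CPM + 1) scale, was -0.05 for H1, 1.38 for H2A, 0.61 for H2B, 2.26 for H3 and -0.76 for H4. The SDs within a cohort lay between 0.67 and 4.15, and each type but H2A had a library at 0 in both cohorts. For H2A the lowest Cohort B library, 14HP26, was at 0, and all Cohort C libraries lay between 7.73 and 9.34 against 0 to 10.43 in Cohort B.

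All 5 types were present in the deepest libraries, while single genes decided the types seen in 14HP26, 14HP31 and 15CP4. H1 made 13.8 to 33.5%, H2A 32.97 to 40.95% and H2B 26.8 to 32.9% of histone counts in the 4 deepest libraries, with H3 at 2.90 to 6.74% and H4 at 2.76 to 9.76%. By contrast, 14HP26 held only HIST1H4F (88 counts) and HIST1H2BD (64), and 15CP4 only HIST1H3G (38) and HIST2H2AB (34). The library of 14HP31 held HIST1H2AK (35), HIST1H1E (18) and HIST1H1C (1). In 14HP33 the leading members were HIST1H2BF (27 counts) and HIST1H4L (19). The shallow library of 15CP6 did hold all 5 types, with H1 at 20.5%, H2A at 39.1%, H2B at 28.5%, H3 at 7.76% and H4 at 4.16%. Its H3 and H4 counts came from 1 member each. In 14HP24 all 5 types had a count as well, with H4 at 1 count, and the leading member, HIST1H1B, took 19.8% of the histone counts.

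**Figure D2:**
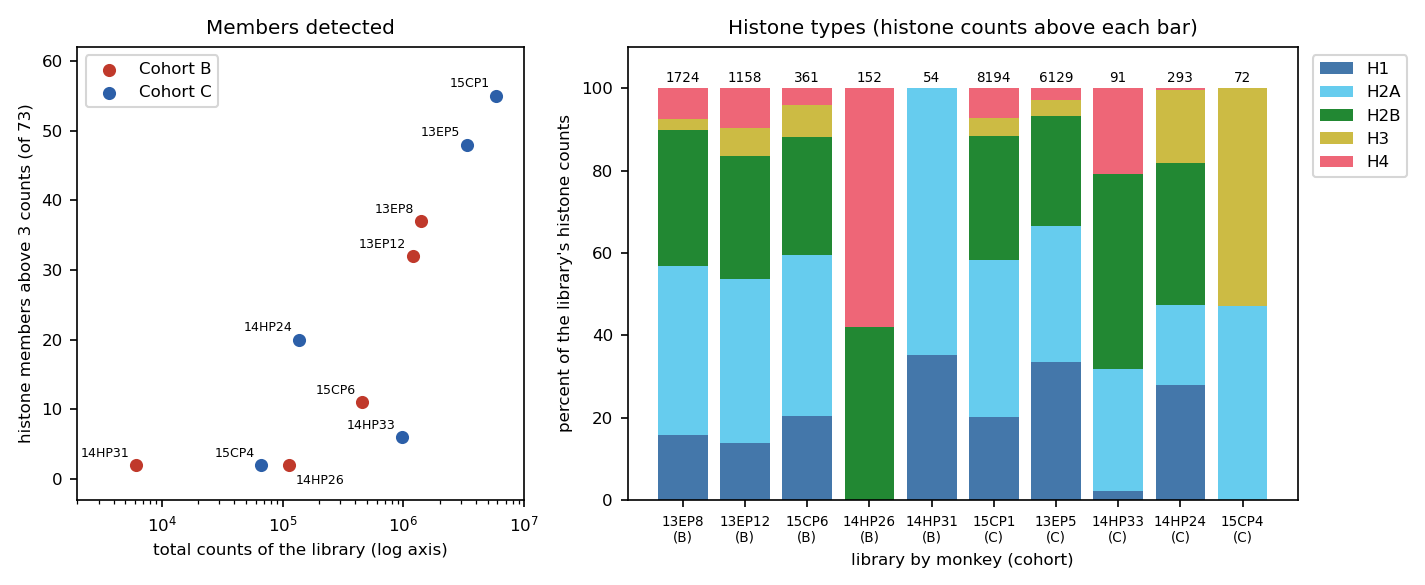
Left, members above 3 counts against the total counts of the library (log axis), with 1 point per library coloured by cohort. Right, percent of each library's histone counts in each type, with the number of histone counts above the bar. Detection runs from 2 members at the lowest totals to 55 at the highest, and all 5 types are present in the 4 deepest libraries, with H1 between 13.8% in 13EP12 and 33.5% in 13EP5.

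Linker histone H1 was led by HIST1H1E, HIST1H1C and HIST1H1B. For HIST1H1E, Cohort B libraries had 13, 94, 0, 18 and 40 counts (in the order 13EP12, 13EP8, 14HP26, 14HP31, 15CP6) and Cohort C libraries had 1028, 0, 12, 676 and 0 (in the order 13EP5, 14HP33, 14HP24, 15CP1, 15CP4). Both cohorts spanned 0 to a high value, and the log2 fold change of Cohort C over Cohort B was -0.68 ± 1.97 (SE; edgeR quasi-likelihood test). In the same orders, HIST1H1C had 74, 152, 0, 1 and 34 counts against 484, 0, 12, 529 and 0, a log2 fold change of 0.16 ± 2.02. HIST1H1B had 52, 27, 0, 0 and 0 counts against 474, 2, 58, 365 and 0, with a log2 fold change of 3.01 ± 2.18. The low-level HIST1H1A had 21 counts in 13EP12 as its only Cohort B value, against 6 in 13EP5 and 34 in 15CP1. HIST1H1D was at 0 in all Cohort B libraries and had 59 counts in 13EP5 and 50 in 15CP1.

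Among H2A genes, HIST2H2AC had the most counts of any member. It had 166, 334, 0, 0 and 0 counts in Cohort B and 880, 13, 22, 1414 and 0 in Cohort C, in the same order of monkeys. The cohorts overlapped, with a log2 fold change of 1.11 ± 1.98 (SE). Its neighbour HIST2H2AB had 94, 53, 0, 0 and 0 counts against 71, 13, 6, 250 and 34, and it was above 3 counts in 7 libraries, including all of Cohort C. HIST1H2AE had 35, 100, 0, 0 and 50 counts against 312, 0, 10, 344 and 0, and its log2 fold change was 0.03 ± 2.04. HIST1H2AL stayed low, with 6, 8, 0, 0 and 4 counts against 38, 1, 5, 96 and 0. HIST1H2AI had 157 counts in 13EP5, 176 in 15CP1 and 0 in the other 8 libraries. Over the pooled counts of each cohort it was at least 40.9-fold higher in Cohort C, taking 3 counts over Cohort B as the floor. Here and below, such pooled bounds set a floor for the cohort at 0 and take the counts of the higher cohort as observed. They leave out the counting error of the higher cohort and the spread between monkeys, and this one rests on 2 libraries. The pseudogene HIST1H2APS1 ran the other way, with 26 counts in 13EP12 and 3 in 13EP8 against 5 in 15CP1 as its only Cohort C value. The other tested H2A genes had 33 to 460 counts in all, led by HIST1H2AM (68 and 40 counts in 13EP12 and 13EP8, 182 and 170 in 13EP5 and 15CP1). HIST1H2AG was highest relative to depth in 15CP6 (86 counts), and HIST1H2AK in 14HP31 (35 counts).

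H2B was the type with the most members tested, 18 of 20. HIST1H2BD, one of the histone genes known to give polyadenylated transcripts as well, had 13, 11, 64, 0 and 0 counts in Cohort B and 273, 10, 22, 236 and 0 in Cohort C. HIST1H2BJ had 2, 28, 0, 0 and 23 against 104, 5, 24, 115 and 0, HIST1H2BL had 10, 47, 0, 0 and 13 against 157, 0, 19, 295 and 0, and HIST1H2BI had 14, 48, 0, 0 and 7 against 70, 0, 9, 190 and 0. Each of these 4 had a library at 0 in both cohorts, and their log2 fold changes lay between 0.01 and 1.73 with SEs of 2.01 to 2.13. HIST1H2BN was at 0 throughout Cohort B and had 114 counts in 13EP5 and 67 in 15CP1, at least 22.2-fold higher over the pooled counts. The 14 H2B genes outside these 4 had 53 to 584 counts in all and log2 fold changes from -0.82 to 6.63. HIST2H2BF led them with 54 and 63 counts in 13EP12 and 13EP8 and 188 and 279 in 13EP5 and 15CP1, and was at 0 in the other 6 libraries. The H2B gene of the HIST3 cluster, HIST3H2BB, had 53 counts, all in 15CP1.

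H3 genes were low, with at most 364 counts summed in a library. HIST1H3D had 26, 23, 0, 0 and 28 counts in Cohort B and 86, 0, 7, 115 and 0 in Cohort C, a log2 fold change of -0.21 ± 2.06. HIST1H3B had 10 counts in 13EP8 as its only Cohort B value, against 17, 0, 11, 22 and 0 in Cohort C. HIST1H3G had 0 counts in all 5 Cohort B libraries and 12, 0, 16, 7 and 38 in Cohort C, so that 4 of 5 Cohort C libraries exceeded every Cohort B library. It was at least 8.97-fold higher over the pooled counts. The smallest library of Cohort C, 15CP4, held 38 of its 73 counts. HIST1H3J was likewise at 0 in Cohort B and had 49, 0, 17, 35 and 0 counts in Cohort C, at least 12.4-fold higher. The other 7 tested H3 genes had 17 to 98 counts each over the 10 libraries, and outside the 4 deepest libraries they had a single count, of HIST1H3A in 14HP24.

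H4 genes had fold changes of both signs. HIST1H4F had 21, 22, 88, 0 and 0 counts in Cohort B against 8, 0, 0, 48 and 0 in Cohort C (log2 fold change -5.10 ± 2.42). That value rested on 14HP26, without which it was -1.64 ± 2.0, and it was -1.67 ± 1.93 in the 4 deepest libraries. HIST4H4, the lone member of the HIST4 cluster, had 43, 83, 0, 0 and 0 against 31, 0, 0, 281 and 0. HIST1H4A had 1, 9, 0, 0 and 0 counts against 69, 0, 0, 98 and 0, and HIST1H4C had 8, 3, 0, 0 and 0 against 40, 0, 0, 49 and 0. HIST1H4L, which the study lists among the genes it found in these same libraries and which is therefore not independent evidence, had 7 counts in 13EP5, 19 in 14HP33 and 0 elsewhere, at least 3.19-fold higher in Cohort C over the pooled counts. The other 4 tested H4 genes had 29 to 60 counts each, with HIST1H4B the highest (15 of its 60 counts in 15CP6 and 39 in 15CP1). HIST1H4J was the reverse case, with 28 counts in 13EP12 and 0 in the other 9 libraries. Over the pooled counts it was at least 25.3-fold higher in Cohort B, a bound that rests on that 1 library.

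No member passed an adjusted p under 0.05 between the cohorts. The test, edgeR's quasi-likelihood test with Benjamini-Hochberg adjustment over 14168 genes, called 0 genes at that threshold (0% of those tested), and its smallest adjusted p was 0.141. At an unadjusted p under 0.05 it gave 2923 genes, of which 12 were members. DESeq2 gave 2 genes and limma-voom 0 at an adjusted p under 0.05, none of them a member. At the looser rule of the study, an unadjusted p under 0.01 and a change of 1.5-fold or more, 4 of 58 members were higher in Cohort C, where 1.07% of all genes tested were, and 1 of 58 was lower, where 5.36% were. The 4 were HIST1H3G (log2 fold change 9.27 ± 3.17), HIST1H4L (8.93 ± 3.12), HIST1H3J (7.81 ± 2.94) and HIST1H2AI (7.38 ± 2.84), each with an edgeR adjusted p of 0.141. The member called lower was HIST1H4J, at -5.74 ± 2.13 (edgeR adjusted p = 0.141).

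All 5 called members were at 0 in every library of the other cohort, so that their fitted fold changes rest on the prior count and are not bounds. In the exact permutation test over all assignments of the libraries to cohorts, two-sided, whose smallest possible p is 0.00794, HIST1H3G reached p = 0.0476 and every member had an adjusted p of 1. Every single library mattered to these calls. The number of members called was 0, 1, 3, 3 and 2 without 13EP12, 13EP8, 14HP26, 14HP31 and 15CP6, and 2, 3, 4, 2 and 6 without 13EP5, 14HP33, 14HP24, 15CP1 and 15CP4. Calls over all genes, 911 with every library kept, moved too. In the same orders they numbered 655, 583, 597, 698 and 587, and 76, 515, 567, 143 and 608. HIST1H3G was called in 8 of these 10 settings, HIST1H4L in 6, HIST1H4J in 4, HIST1H2AI in 3 and HIST1H3J in 2.

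Over all 58 tested members, 40 log2 fold changes were above 0 and 18 below, with a median of 1.02, against 7585 above and 6583 below with a median of 0.16 over all genes. By type, the fold change was above 0 for 3 of 5 H1, 10 of 14 H2A, 14 of 18 H2B, 8 of 11 H3 and 5 of 10 H4 genes. These counts moved with the scaling: 37 members were above 0 with RLE size factors and 33 with library size only, and DESeq2 put 29 above and 29 below. The median of the members was 0.91 with RLE, 0.73 with library size only and 0.06 in DESeq2. The medians of all genes were -0.03, -0.10 and -0.31 in that order, and the gap was not tested. Calls over all genes also changed their split, with 16.7% higher under TMM, 33.8% under RLE and 7.90% under library size only. Those over members were 4 higher and 1 lower, 7 higher and 3 lower, and 2 higher and 2 lower in that order.

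**Figure D3:**
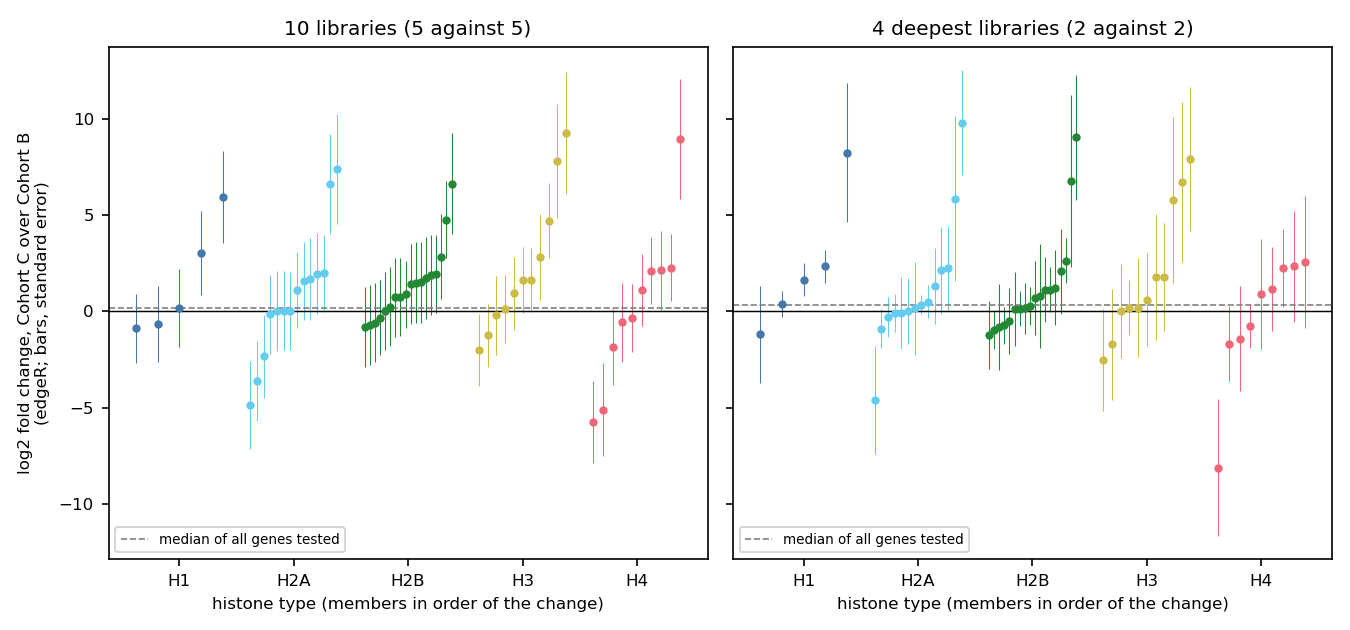
Log2 fold change of each tested member, Cohort C over Cohort B (edgeR, bars give the standard error), by type, in all 10 libraries (left, 58 members) and in the 4 deepest (right, 57 members). The dashed line is the median of all genes tested, 0.16 and 0.32. Of the members, 37 of 58 on the left and 39 of 57 on the right lie within 1 standard error of that line, and the highest points on both sides are members at 0 in all Cohort B libraries shown.

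The 4 libraries over 1000000 counts allowed the members to be compared at a usable depth, as a subset chosen after the depths were seen. In this comparison of 2 against 2 monkeys, with TMM scaling over those libraries, 57 members were tested and 1 was called higher at p under 0.01 and 1.5-fold, where 0.512% of 13274 genes were, and 0 lower, where 0.369% were. The 1 was HIST1H2AI, at 9.80 ± 2.71 (edgeR adjusted p = 0.80), with 44.8 CPM in 13EP5, 30.4 CPM in 15CP1 and 0 in both Cohort B libraries. The smallest adjusted p of any member was 0.80. Both Cohort C libraries exceeded both Cohort B libraries for 18 of 57 members, where 29.4% of all genes did so, and both lay below for 3 (HIST1H2BH, HIST1H2APS1 and HIST1H4F), where 9.33% of all genes did. By type, the members higher in both Cohort C libraries were 3 H1, 4 H2A, 5 H2B, 3 H3 and 3 H4 genes. HIST1H2BH, an H2B gene, stood at 59.9 and 48.7 CPM in 13EP12 and 13EP8 against 32.5 and 23.0 CPM in 13EP5 and 15CP1. The median log2 fold change was 0.51 for members and 0.32 for all genes.

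H1 took a larger part of the histone counts in both Cohort C libraries of these 4. Summed H1 levels were 133 CPM in 13EP12 and 204 CPM in 13EP8, against 585 CPM in 13EP5 and 285 CPM in 15CP1. H1 made up 13.8% of histone counts in 13EP12 (95% Wilson interval 11.9 to 15.9%) and 15.8% in 13EP8 (14.2 to 17.6%), against 33.5% in 13EP5 (32.3 to 34.7%) and 20.2% in 15CP1 (19.3 to 21.1%). The Cohort C shares lay above those of Cohort B by more than counting error, but 2 against 2 monkeys cannot give a permutation p below 0.333. Shares add up to the whole, and H2A, at 39.9 and 40.95% against 32.97 and 38.1%, and H4, at 9.76 and 7.37% against 2.76 and 7.22%, were lower in both Cohort C libraries. The shallower libraries overlapped in H1, which made up 0% in 14HP26, 35.2% in 14HP31 and 20.5% in 15CP6 of Cohort B and 2.198% in 14HP33, 27.99% in 14HP24 and 0% in 15CP4 of Cohort C.

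HIST1H1E carried much of the H1 difference, at 10.8 and 70.4 CPM in 13EP12 and 13EP8 against 293 and 117 CPM in 13EP5 and 15CP1 (log2 fold change 2.33 ± 0.86, edgeR adjusted p = 0.80). HIST1H1B stood at 43.2 and 20.2 CPM against 135 and 63.0 CPM, and HIST1H1D at 0 and 0 against 16.8 and 8.63 CPM. HIST1H1C did not separate, with 61.5 and 114 CPM against 138 and 91.3 CPM. The direction of HIST1H1E in all 10 libraries was the opposite, and it turned to 1.31 when 14HP31 was left out, the 6076-count library in which this gene took 18 of 54 histone counts.

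Sums of the core histone types differed less in the 4 deepest libraries. HIST2H2AC was at 138 and 250 CPM in Cohort B and 251 and 244 CPM in Cohort C. Summed H2A was 384 and 529 CPM against 576 and 539 CPM, and summed H2B was 287 and 425 CPM against 467 and 425 CPM. Summed H3 lay between 37.4 and 70.7 CPM and summed H4 between 48.2 and 102.2 CPM, with the cohorts overlapping. HIST1H2BD was an H2B gene that separated, at 10.8 and 8.23 CPM against 77.8 and 40.7 CPM, whereas HIST2H2AB was highest in 13EP12 at 78.1 CPM and lowest in 13EP5 at 20.2 CPM.

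**Figure D4:**
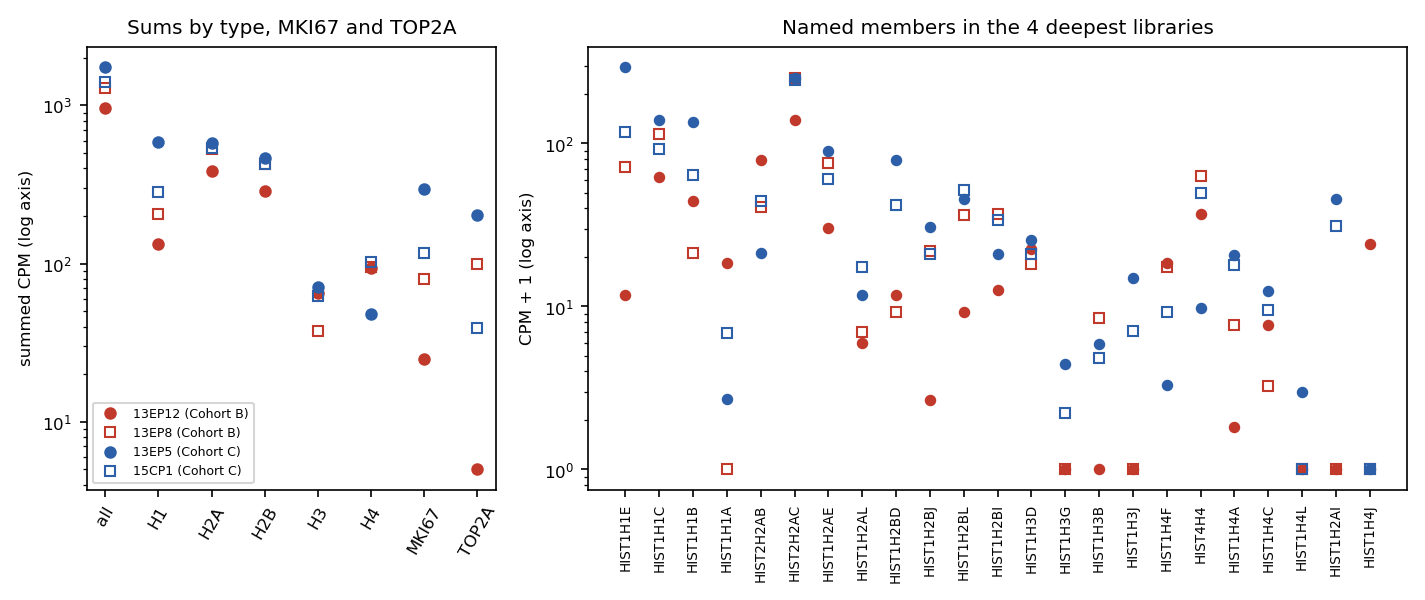
The 4 libraries over 1000000 counts, with Cohort B in red and Cohort C in blue and 1 symbol per monkey. Left, summed CPM (log axis) of all members, of each type, and of MKI67 and TOP2A. Right, CPM + 1 (log axis) of the named members. The sum of all members, summed H1, summed H2A and MKI67 are higher in both Cohort C libraries, with H2A at 529 and 539 CPM in the nearest libraries, while summed H3, summed H4 and TOP2A overlap and the nearest libraries in H2B are both at 425 CPM.

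Members with a count were also counted at matched totals in these 4 libraries. Thinned to the 1191070 counts of the smallest of the 4, the expected number of members with a count was 37 in 13EP12, 41.8 in 13EP8, 50.03 in 13EP5 and 55.02 in 15CP1. The number of all genes with a count ran in the same order, from 8900 in 13EP12 and 10164 in 13EP8 to 11390 in 13EP5 and 13325 in 15CP1.

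The proliferation check followed the summed histone level only in part. MKI67 had 30, 107, 28, 0 and 1 counts in Cohort B and 1035, 0, 0, 678 and 0 in Cohort C. TOP2A had 6, 132, 0, 0 and 0 against 710, 0, 5, 227 and 0. Both cohorts held libraries at 0, and the level in Cohort C minus that in Cohort B on the log2(CPM + 1) scale was -0.94 for MKI67 (exact permutation p = 0.778) and 1.79 for TOP2A (exact permutation p = 0.444, two-sided, n = 5 each). The edgeR log2 fold changes over the same 10 libraries were 0.74 ± 2.01 for MKI67, the opposite sign, and 1.41 ± 2.08 for TOP2A, both well within their errors. In the 4 deepest libraries, summed histone levels of 963 CPM in 13EP12, 1291 CPM in 13EP8, 1414 CPM in 15CP1 and 1747 CPM in 13EP5 stood in the same order as MKI67 at 24.9, 80.1, 117 and 295 CPM. TOP2A, at 4.99, 98.8, 39.2 and 202 CPM, had 13EP8 above 15CP1. The edgeR log2 fold change of MKI67 in these libraries was 1.97 ± 0.74 (adjusted p = 0.80) and that of TOP2A was 1.21 ± 1.13. In 14HP31, 14HP33 and 15CP4, with 54, 91 and 72 histone counts, MKI67 and TOP2A were at 0. The floor of 3 counts there equals 118, 42.6 and 18.7 CPM, so that an MKI67 level such as the 26.0 CPM of 13EP12 (on the scale of all 10 libraries) could not be seen in 14HP31 or 14HP33.

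Markers of other cells varied among the deepest libraries as well, given here as summed CPM on the scale of all 10 libraries. The 5 platelet markers stood at 275 CPM in 13EP5, with 4 of them above 3 counts, against 22.5 in 13EP12, 6.10 in 13EP8 and 4.96 in 15CP1. The 6 monocyte markers stood at 91.7 CPM in 13EP5, against 263 in 13EP12, 355 in 13EP8 and 420 in 15CP1. The sum of the 6 CD8 and NK markers was lower in both Cohort C libraries, at 33.6 CPM in 13EP5 and 81.1 in 15CP1 against 223 in 13EP12 and 103 in 13EP8. Singly, KLRD1 and NKG7 were lower in both, and CD8A, CD8B and GNLY overlapped. NCAM1 was higher in both, at 14.9 CPM in 13EP5 and 28.1 in 15CP1 against 0.865 in 13EP12 and 13.7 in 13EP8. The 5 B cell markers lay between 28.9 and 76.2 CPM, and all 8 T cell markers were above 3 counts in each of the 4. The 5 erythroid markers were at 0 in all 4, and HBB had 186 counts in 15CP6 and 93 in 14HP33. The part of other cells in the histone levels was not tested.

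The genes that act around the histone genes showed no call in either direction. Of 23 S phase and mitosis genes, 14 had a log2 fold change above 0 and 9 below, with a median of 0.42. PCNA, the clamp of the replication fork, had 64, 29, 0, 0 and 30 counts in Cohort B and 368, 44, 30, 568 and 0 in Cohort C (2.75 ± 2.10). CDK2, the S phase kinase, was at -2.22 ± 2.10 and MCM6, a subunit of the replicative helicase, at -0.43 ± 2.05. In the 4 deepest libraries 8 of the 23 were higher in both Cohort C libraries and 1 was lower, where 29.4% and 9.33% of all genes were.

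Of 12 genes of histone transcription and 3' end processing, 7 were above 0 and 5 below (median 0.12). SLBP, the stem-loop binding protein, had 52, 148, 14, 0 and 38 counts against 701, 0, 36, 488 and 0 (0.68 ± 2.0), CASP8AP2, a component of histone locus bodies, was at 1.04 ± 2.0, and UPF1, the helicase used in histone mRNA decay, was at -0.07 ± 2.03. Of 8 histone chaperones and related genes, 6 were above 0 and 2 below (median 0.45), with RBBP4 at 2.03 ± 2.03, the H1 and H3-H4 chaperone NASP at 0.17 ± 1.98 and the H3-H4 chaperone ASF1A at -1.38 ± 2.06. None of these genes was called.

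Replacement histones, which are also made outside S phase and mostly from polyadenylated mRNAs, had no gene called either. Of the 11 listed, 9 could be tested, with 5 above 0 and 4 below (median 0.34). In the 4 deepest libraries 4 of 8 tested were higher in both Cohort C libraries, where 29.4% of all genes were, among them H2AFY (1.85 ± 0.65, edgeR adjusted p = 0.80) and H1FX (1.52 ± 0.69, adjusted p = 0.80). H3F3B, which encodes the replacement form of H3, had 541, 706, 0, 0 and 12 counts against 2411, 4, 4, 2369 and 0 (0.34 ± 1.90), while H3F3A, which encodes the same protein, was listed at 0 in all libraries. Over all 10 libraries H1FX was at 1.29 ± 2.0 and H2AFV at 1.56 ± 2.04. The 7 members known for polyadenylated transcripts had 5 above 0 and 2 below (median 0.04), and 7 of 8 housekeeping genes were above 0 (median 0.32).

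Levels between members were compared on FPKM, the only scale here that divides by gene length. The FPKM table listed 71 of the 73 members. HIST2H2AC had the highest mean of any member, with 349 and 1034 FPKM in 13EP12 and 13EP8, 7544 in 13EP5, 28.9 in 14HP33, 198 in 14HP24 and 839 in 15CP1. Most of that mean came from 13EP5, although in CPM over the 4 deepest libraries 13EP5 and 15CP1 were close, at 251 and 244. By FPKM HIST2H2AC ranked 119 of the 26381 genes listed in 13EP5, 143 in 14HP33, 181 in 14HP24, 199 in 13EP8 and 203 in 15CP1, and its rank was lower still in 13EP12. HIST1H2BD (mean 270 FPKM), HIST1H4F (221), HIST1H1B (218) and HIST1H1E (203) came next. The mean of HIST1H4F came from 14HP26 alone at 2214 FPKM, and those of HIST1H1B and HIST1H1E mostly from 13EP5 at 1686 and 1873 FPKM. That of HIST1H2BD came mostly from 13EP5 (1369 FPKM) and 14HP26 (1096 FPKM). The order of these 4 is therefore not set beyond the spread between libraries.

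The deposited tables disagreed on many members. Of 710 values in both tables, 154 were above 0 in each, 88 had a count but were listed at 0 FPKM, and 12 had an FPKM without a count. Of the 215 values above 3 counts, 65 were listed at 0 FPKM. HIST1H4L, with 26 counts, was at 0 FPKM throughout. HIST2H2AA3, with 0 counts throughout, had 18.9, 0, 30.3, 0 and 20.4 FPKM in Cohort B and 201, 126, 0, 71.3 and 0 in Cohort C. It was 1 of 4 members that had FPKM but no counts, the others being HIST2H3A, HIST2H3C and HIST2H4B.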

How the data were processed

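RNA from flow-sorted Tr1 cells of 10 monkeys (5 per cohort) was made into stranded total RNA libraries with the Clontech Pico kit. Per the submitters' processing notes and the paper, the authors aligned reads with HISAT2 2.0.2 to human hg38 and deposited raw counts per gene, and FPKM values from Cuffdiff 2.2.1. Counting options on strand and reads with several matches are not given in the sources used here. Mapping macaque reads to the human genome can lose reads of diverged genes. Gene symbols in the form of dates (13 names) were not used for any result.

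Counts of at least 10 over the libraries were kept (14168 genes) and tested with edgeR 4.0.16 (TMM, quasi-likelihood; R 4.3.3), after a test on simulated data. Genes were called at p under 0.01 and 1.5-fold, or at an adjusted p under 0.05. SEs were derived from each fold change and its F statistic. Exact permutation tests used log2(CPM + 1), a pseudocount of 1, with scipy 1.17.1. Sums over members were described without a test. Alternatives used DESeq2 1.42.0, limma 3.58.1, other scalings, filters and pseudocounts, FPKM, a replicate block and fewer libraries. P-values measure the spread between monkeys, with 1 library each from 6076 to 5895609 counts. Wilson intervals and count floors reflect counting error alone.

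The members, lists and tests were chosen with earlier results of these data known. Named were, in each type, the 4 members above 3 counts in the most libraries, the called members, HIST1H4L, MKI67, TOP2A, and 3 genes of each related list. HIST1H1D, HIST1H2AK, HIST1H2AG, HIST1H2AM, HIST1H2APS1, HIST1H2BF, HIST1H2BH, HIST1H2BN, HIST2H2BF, HIST1H3A, HIST1H4B, HIST3H2BB, H2AFY, leading members of a library and members with 0 counts were named after their values were seen. Sequences and coordinates were not analysed here.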

Additional observations from a re-analysis of the deposited data

Results flagged for a closer look

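Of 32 sets of 5 libraries examined (16 measures in each cohort), 9 held a library far from the other 4 by Dixon's test. The measures overlap, since the sum of all members contains the sums of the types. The called members were each at 0 throughout a cohort, so the number of sets is not compared with a chance rate. The histone share of 14HP31, 0.889%, stood above the rest of Cohort B, and the summed level of 15CP4, 8.81 on the log2(CPM + 1) scale, stood below the rest of Cohort C. Single types at 0 accounted for 5 of the 9. They were H1 and H2A in 14HP26 (0 each), H2B in 14HP31 and in 15CP4 (0 each), and H3 in 14HP33 (0). Those 4 libraries had 54 to 152 histone counts in 2 to 9 members. Of the called members, HIST1H4L stood apart in 14HP33 at 8.08 on the log2(CPM + 1) scale, from 19 counts, and HIST1H4J in 13EP12 at 4.66, from 28 counts. With counts in 1 library alone, HIST1H4J was bound to stand apart.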

How the results depend on the processing

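Read depth limits these results, since 6 of 10 libraries held 1023 histone counts in all. The difference in summed level, 0.13 with TMM, was -0.87 with library size only. Under every other alternative it moved by less than the larger cohort SD, 0.86 in Cohort C. Its sign still turned, to -0.42 with TMM without the MTRNR2L genes and -0.28 with RLE size factors. In libraries of at least 100000 counts it was 0.73, a move above the Cohort B SD of 0.57. Differences of the 5 types moved by less than their larger cohort SDs, but these were wide, at 3.33 to 4.15. Signs turned under some alternatives for all types but H3. H1 was at 2.64 in the FPKM table, H2A at -0.45 without 14HP26, H2B at -1.06 without 14HP31 and H4 at 0.41 without 15CP4. No alternative gave a member an adjusted p under 0.05. Calls at the unadjusted threshold stayed within 1.5 times of the 5 members with library size only (4) and with TMM without the MTRNR2L genes (5), and without 14HP24 (4) or 15CP4 (6), and moved further under every other choice. Histone genes called numbered 10 with RLE size factors, 0 with the filterByExpr filter (which left 11 members to test), 3 when all genes with any count were kept, 1 with edgeR's exact test, 1 with limma-voom, 1 with DESeq2, 2 with the index suffix of the labels as a covariate, 1 in libraries of at least 100000 counts, 1 in the 4 libraries of at least 1000000 counts (chosen after the data had been seen) and 0 with limma on log2(FPKM + 1). The matching counts over all genes were 1525, 10, 1000, 341, 67, 69, 98, 326, 117 and 2. Leaving out each library in turn gave 0 to 6 members and 76 to 698 genes. Among the 23 alternatives, HIST1H3G was called in 16, HIST1H4L in 10, HIST1H4J in 8, and HIST1H2AI and HIST1H3J in 6 each.

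The replicate numbers of the labels number different monkeys in each cohort and pair nothing. Same-numbered libraries had correlations of their deviations of 0.38, -0.29, 0.02, -0.43 and -0.04. The replicate block gave 0 members and 0 genes called, and turned the log2 fold changes of HIST1H1C, MKI67, MCM6 and NASP to -0.18, -1.82, 0.21 and -0.16.

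The direction turned for single genes that were not called, and the cause was not tested. With RLE size factors the log2 fold changes of HIST1H1C, HIST1H2BD, MKI67, SLBP and NASP were -0.18, -1.88, -0.52, -0.078 and -0.047. With library size only, those of HIST1H1C, HIST1H2AE and HIST1H2BD were -0.24, -0.028 and -1.04. The filterByExpr filter gave -0.21, -0.28 and -0.17 for HIST1H1C, HIST1H2AE and MKI67, and the exact test gave -0.00063 for HIST1H2BD. In limma-voom HIST1H1C, HIST1H1A, HIST1H2AE, MKI67, MCM6, SLBP and NASP were at -0.79, 0.35, -0.38, -1.68, 0.37, -0.92 and -0.13. DESeq2 gave -0.14, -0.035, -0.52, -0.082 and -0.054 for HIST1H1C, HIST1H2AE, MKI67, SLBP and NASP. With the index suffix, HIST1H3D and MCM6 were at 0.028 and 0.39. In libraries of at least 100000 counts HIST1H1E was at 1.63. In the 4 deepest, HIST1H1E, HIST2H2AB, HIST1H3D, CASP8AP2, UPF1, RBBP4, NASP and H2AFV were at 2.33, -0.89, 0.19, -0.078, 0.63, -0.12, -0.27 and -0.47. On log2(FPKM + 1), HIST1H1E, HIST1H1A, HIST1H2AL, HIST1H2BD, HIST1H3D, HIST4H4, CDK2, MCM6, UPF1 and H1FX were at 1.92, 0.27, -0.67, -0.014, 2.0, 0.15, 0.023, 0.42, 0.41 and -0.044. The MKI67 difference on the log2(CPM + 1) scale turned to 2.03 in the 4 deepest libraries and to 0.77 in the FPKM table.

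Leaving out 1 library at a time turned some of these too. The ranges were -1.30 to 1.31 for HIST1H1E, -0.38 to 0.68 for HIST1H1C, -2.27 to 4.55 for HIST1H1A, -0.42 to 0.62 for HIST1H2AE, -0.29 to 3.74 for HIST1H2BD, -0.68 to 0.70 for HIST1H3D and -2.77 to 0.31 for HIST4H4. For the related genes they were -0.18 to 1.89 for MKI67, -0.30 to 5.01 for TOP2A, -0.83 to 0.82 for MCM6, -1.19 to 0.43 for UPF1, -0.31 to 0.98 for NASP, -2.49 to 0.10 for ASF1A and -0.76 to 0.95 for H3F3B.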

Other observations

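The HIST2 cluster, which lies apart from the large HIST1 cluster, contributed unevenly. Its members took 426 of 1158 histone counts in 13EP12, 526 of 1724 in 13EP8, 1283 of 6129 in 13EP5 and 2266 of 8194 in 15CP1. In 15CP6 of Cohort B they took 1 of 361, a single count of HIST2H2BE. HIST2H2AC, the leading member in 13EP12, 13EP8 and 15CP1, had 0 counts in 15CP6, where the floor of 3 counts equals 6.62 CPM, against 144 to 293 CPM in the 4 deepest libraries on the scale of all 10. HIST1H2AG (86 counts), HIST1H2BK (59) and HIST1H2AE (50) led 15CP6 instead. This contrast was noticed in the data and was not tested.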
